A study of Mus musculus with 3 samples.

Results

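The genes of adenosine-to-inosine RNA editing and of N6-methyladenosine (m6A) methylation of mRNA were examined in RNA from the medial prefrontal cortex (mPFC) of mice, a frontal area of cerebral cortex. The 10 genes were chosen by name as writers, erasers and readers of these marks, and their Ensembl identifiers were matched to symbols, out of 46073 genes in the deposited table. They were the editing enzymes Adar, Adarb1 and Adarb2, the m6A writers Mettl3, Mettl14 and Wtap, the erasers Fto and Alkbh5, and the readers Ythdf2 and Ythdc1. All tissue came from untreated C57BL/6 mice aged 3 months, and no transgene, agent or second condition is given. The series holds 3 samples, DNA enriched with an antibody to methylated cytosine, input DNA and RNA, and only the RNA sample was used here. The design text states 3 replicates for RNA, but the table's 2 value columns were equal in all 46073 rows, so there is 1 value per gene. No value below has an error, no difference between genes was tested, and no pattern across samples can be described. Levels are given in FPKM (mapped fragments scaled to transcript length and to the total mapped), which allows genes of different length to be ranked within the sample. The sequencing depth is unknown.

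ADAR enzymes convert adenosine to inosine in double-stranded RNA, and the ribosome reads inosine as guanosine, so that editing can change the protein made. m6A is placed on mRNA by a complex built around the Mettl3 and Mettl14 proteins, is removed by the oxygenases Fto and Alkbh5, and is bound by proteins with a YTH domain that act on splicing, export, translation and decay. In cortex, editing of glutamate receptor transcripts sets the calcium permeability of AMPA receptors, and m6A is abundant in neuronal mRNA. The table holds RNA levels of the enzymes only, and neither edited bases nor methylated adenosines were measured.

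The ADAR genes differ in the sequence before their annotated starts, and the paralogs Adarb1 and Adarb2 are shown because they had the most and the fewest CpG of the ADAR genes, taking for each gene its start with the most CpG. The RefSeq sequences (GRCm38.p6, each 5′ to 3′ on the gene's strand) cover the 250 bases before the start, with every CpG in capitals. The Adarb1 stretch is chr10:77418274-77418523 on the minus strand and the Adarb2 stretch is chr13:8202616-8202865 on the plus strand.
Adarb1: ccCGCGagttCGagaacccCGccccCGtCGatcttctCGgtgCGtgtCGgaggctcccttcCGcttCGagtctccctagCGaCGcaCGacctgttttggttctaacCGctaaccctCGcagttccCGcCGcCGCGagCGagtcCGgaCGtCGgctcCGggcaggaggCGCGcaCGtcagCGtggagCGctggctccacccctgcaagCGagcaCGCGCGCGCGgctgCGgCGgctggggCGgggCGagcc
Adarb2: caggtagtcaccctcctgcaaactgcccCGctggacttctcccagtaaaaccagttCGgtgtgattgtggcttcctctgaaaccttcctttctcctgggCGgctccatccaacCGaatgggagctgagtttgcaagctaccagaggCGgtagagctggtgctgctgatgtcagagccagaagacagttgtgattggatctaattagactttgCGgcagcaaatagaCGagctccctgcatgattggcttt
The Adarb1 stretch held 40 CpG with a GC content of 72.0%, and the Adarb2 stretch held 7 CpG with 52.8%. Of 32851 annotated start windows, 1.31% held at least as many CpG as Adarb1 and 46.3% at least as many as Adarb2.

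All 10 genes were detected, which means at 1 FPKM or more, where 31.5% of all rows and 58.6% of the 20635 protein-coding rows reached that level. Their median was 17.6 FPKM, beside medians of 2.59 FPKM over all protein-coding rows and 9.86 FPKM over the detected ones. Of the 10 genes, 7 lay above the latter median and 3 below it, and those 3 were Alkbh5, Mettl14 and Adarb2. The levels spanned 13.4-fold, from Adarb2 at 3.35 FPKM to Fto at 45.0 FPKM. From high to low the order was Fto, Adar, Adarb1, Wtap, Mettl3, Ythdc1, Ythdf2, Alkbh5, Mettl14 and Adarb2. The widest steps between neighbours in that order were 1.77-fold, from Mettl14 down to Adarb2, and 1.66-fold, from Ythdc1 down to Ythdf2. Wtap and Mettl3 were the closest neighbours, 1.03-fold apart. Of the 45 pairs among these genes, 25 differed 2-fold or more in FPKM and 20 by less, and with no replicates the order of close neighbours cannot be judged.

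**Figure D1:**
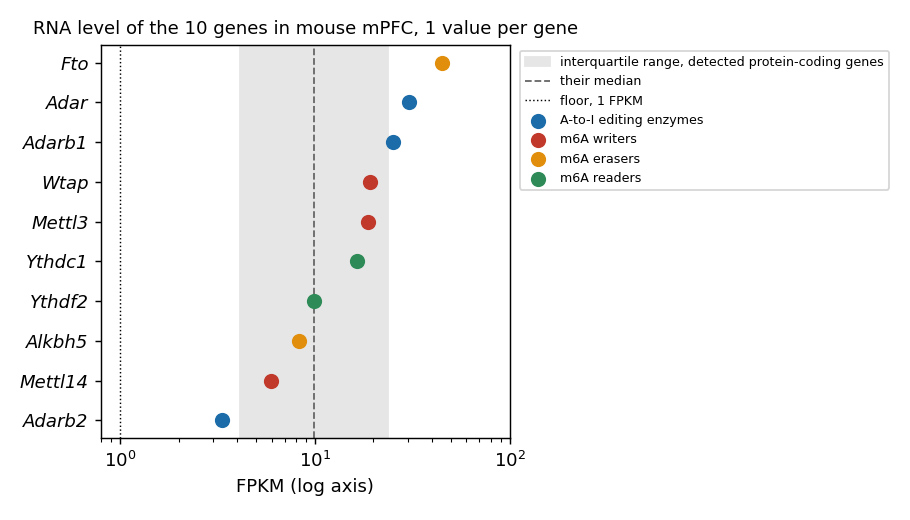
RNA level of each gene in FPKM on a log axis, 1 point per gene, coloured by role, with the interquartile range (4.13 to 23.7 FPKM) and median of detected protein-coding genes shaded and dashed. Fto, Adar and Adarb1 lie above that range, Adarb2 below it at 3.35 FPKM, and the other 6 within it.

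Adar and Adarb1, the editing enzymes with known activity, had similar levels, and Adarb2 was several-fold lower than both. Adar, whose protein edits repeats in noncoding sequence and keeps cellular RNA from being sensed as foreign, was at 30.6 FPKM. It is listed as ENSMUSG00000027951 and lies on chromosome 3 from 89714469 to 89753455 (GRCm38). Its level was at or above that of 88.6% of protein-coding rows. It overlaps Chrnb2, a nicotinic receptor subunit gene on the opposite strand at 14.4 FPKM, by 8 bases. Adarb1, which edits the glutamine codon of Gria2 in the channel pore, was at 25.1 FPKM (ENSMUSG00000020262, chromosome 10, 77290727 to 77418292). Adar was 1.22-fold above Adarb1, a difference of 0.28 on the log2(FPKM + 1) scale.

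Adarb2, a brain paralog for which no editing activity is known, was at 3.35 FPKM (ENSMUSG00000052551, chromosome 13, 8202526 to 8768762). Adar was 9.12-fold and Adarb1 7.48-fold above it. Of the summed FPKM of these 3 genes, Adar made up 51.8%, Adarb1 42.5% and Adarb2 5.68%. Adarb2 marks a class of cortical interneurons, and genes used here as inhibitory neuron markers stood higher in the same RNA. Lamp5 was 45.7-fold, Gad1 37.8-fold and Vip 6.45-fold above Adarb2 in FPKM. Which cells supplied each of these RNAs was not tested, so the ratios are not levels within the Adarb2 class. In bulk tissue, fewer cells of a type and less RNA per cell cannot be told apart.

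Adar has 3 annotated starts in the RefSeq table, and the FPKM of the gene does not divide its fragments among them. The 250 bases before these starts held 5, 24 and 10 CpG. Transcripts of the longer, interferon-inducible protein form start separately from those of the shorter, constitutive form. For that reason the windows of 300 bases were searched on both strands for GAAANNGAA, the core of the interferon-stimulated response element, a search chosen after the sequences were seen. The letters were found in 8.56% of all 32851 windows and in 1 of the 13 windows of the 9 matched genes, that of the third Adar start. They occurred there at 2 places that do not overlap, shown with the match in capitals, the first beginning 249 bases before the start and the second 33 bases after it.
Adar, chr3:89730468-89730497, plus strand: gGAAAAGGAActtcctcacagggcggagag
Adar, chr3:89730738-89730767, plus strand: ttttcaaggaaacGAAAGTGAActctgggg
A match of letters is a description of the sequence and not evidence that a factor binds there.

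Among the m6A writers, Wtap and Mettl3 were at nearly equal levels and Mettl14 was about 3 times lower. Wtap, the adaptor that holds the complex in nuclear speckles, was at 19.2 FPKM (ENSMUSG00000060475, chromosome 17, 12966799 to 12992543). Mettl3, the catalytic subunit, was at 18.7 FPKM (ENSMUSG00000022160, chromosome 14, 52294841 to 52308741). Mettl14, its partner that binds the RNA substrate and has no catalytic activity of its own, was at 5.93 FPKM (ENSMUSG00000028114, chromosome 3, 123368295 to 123385990). Mettl3 was 3.15-fold and Wtap 3.23-fold above Mettl14. The proteins of Mettl3 and Mettl14 act as a heterodimer, but protein was not measured, and the RNA ratio does not give the ratio of the subunits. The 3' end of Mettl3 overlaps Tox4, on the opposite strand, by 669 bases. Tox4 was at 10.3 FPKM, and since no source says whether counting used strand, the Mettl3 value is uncertain to that extent.

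The other 5 genes of the writer complex all reached 1 FPKM, around a median of 5.12 FPKM. Of protein-coding rows 58.6% reached that level, the share to set beside the count of each list below. Rbm15b, an RNA-binding subunit that recruits the complex to its targets, was highest at 16.2 FPKM, and its paralog Rbm15 was lowest at 1.46 FPKM. Rbm15b was thus 11.03-fold above Rbm15 and within 1.19-fold of Wtap. The zinc finger subunit Zc3h13 was at 9.37, the scaffold Virma at 5.12 and the ubiquitin ligase Cbll1 at 4.93 FPKM. Virma stood close to Mettl14, and Wtap was 3.74-fold above Virma. Of the summed FPKM of all 8 writer complex genes, Wtap made up 23.7%, Mettl3 23.1%, Rbm15b 19.99% and Mettl14 7.34%.

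The other genes listed for methylation of RNA adenosine at this position, 4 enzymes and a partner protein, all reached 1 FPKM (5 of 5 genes, median 16.6 FPKM). Pcif1, which methylates an adenosine next to the cap that already carries a ribose methyl group, was at 21.3 FPKM, 1.14-fold above Mettl3. Trmt112, an activating partner of several methyltransferases, was at 18.7 FPKM, and Mettl5, an enzyme of ribosomal RNA, at 16.6 FPKM. Mettl16, which methylates a small nuclear RNA and the transcript of a methionine adenosyltransferase, was at 4.85 FPKM, 3.85-fold below Mettl3. Zcchc4, the other ribosomal RNA enzyme, was lowest at 2.64 FPKM.

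The erasers showed the widest difference within a role after the ADAR genes, with Fto 5.40-fold above Alkbh5. Fto, a dioxygenase that also acts on the methylated adenosine beside the cap, was at 45.0 FPKM, at or above 92.7% of protein-coding rows (ENSMUSG00000055932, chromosome 8, 91313367 to 91668433). It was 2.41-fold above Mettl3, 2.35-fold above Wtap and 7.60-fold above Mettl14. Alkbh5, a nuclear m6A demethylase, was at 8.33 FPKM (ENSMUSG00000042650, chromosome 11, 60537683 to 60558512), 2.24-fold below Mettl3. Fto spans 355 kb and overlaps a long non-coding RNA gene on the opposite strand, 4831440D22Rik, by 17152 bases. No value was matched for that gene. Since strand use in counting is not given, the Fto value is uncertain in the same way as that of Mettl3. The highest and the lowest of the 10 genes, Fto and Adarb2, were also those with the longest spans, at 355 and 566 kb.

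The other AlkB homologs, which repair alkylated DNA or act on tRNA and protein, also all reached 1 FPKM (7 of 7 genes, median 3.83 FPKM). Alkbh6 was highest at 29.4 FPKM, followed by Alkbh3 at 11.01 and Alkbh7 at 9.98 FPKM. Alkbh4 at 2.63 and Alkbh2 at 2.37 FPKM were lowest. Fto was 1.53-fold above Alkbh6. Alkbh5 was 2.17-fold above Alkbh1 in FPKM, a difference of 0.95 on the log2(FPKM + 1) scale.

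Of the readers, Ythdc1 was 1.66-fold above Ythdf2. Ythdc1, the nuclear reader that acts on splicing and export, was at 16.5 FPKM (ENSMUSG00000035851, chromosome 5, 86803980 to 86836659). Ythdf2, a cytoplasmic reader that brings mRNA to decay, was at 9.95 FPKM (ENSMUSG00000040025, chromosome 4, 132184916 to 132212256). Its paralogs were close to it: Ythdf3 was 1.02-fold and Ythdf1 1.48-fold above it, at 10.2 and 14.7 FPKM. Ythdc2, a helicase with a role in meiosis, was at 5.35 FPKM, 3.09-fold below Ythdc1. Of the summed FPKM of the 5 YTH genes, Ythdc1 made up 29.1%, Ythdf1 25.9%, Ythdf3 17.9%, Ythdf2 17.6% and Ythdc2 9.44%.

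The wider list of m6A-binding readers, including the 3 other YTH genes, had 7 of 10 genes at 1 FPKM or more and a median level of 11.9 FPKM. Hnrnpa2b1, an abundant nuclear RNA-binding protein, was highest at 123.9 FPKM, 7.51-fold above Ythdc1, followed by Prrc2a at 73.4 and Hnrnpc at 37.3 FPKM. The 3 genes under 1 FPKM were the Igf2bp genes, whose RNA-binding proteins stabilise m6A-bearing mRNA. Igf2bp3 was at 0.428, Igf2bp2 at 0.142 and Igf2bp1 at 0.0214 FPKM, and Ythdf2 was 23.2-fold above Igf2bp3.

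The CCR4-NOT deadenylase, through which Ythdf2 shortens the poly(A) tails of bound mRNA, had 7 of 7 genes at 1 FPKM or more and a median level of 10.4 FPKM. Cnot7, a catalytic subunit, was highest at 58.3 FPKM, followed by its paralog Cnot8 at 29.3 and by Cnot2 at 20.8 FPKM. Cnot6 and Cnot6l, the other catalytic subunits, were lowest at 8.55 and 6.41 FPKM.

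**Figure D2:**
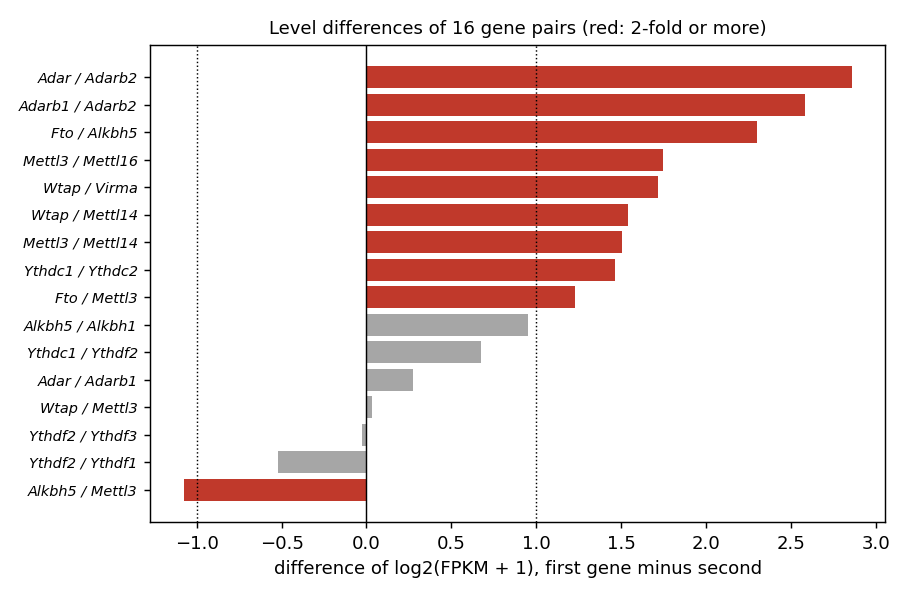
Difference of log2(FPKM + 1) for 16 gene pairs, the first gene minus the second, 1 bar per pair, with dotted lines at a 2-fold difference. In 10 pairs the difference was 2-fold or more (red), led by Adar over Adarb2 at 2.86, and in 6 it was smaller (grey).

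Of the genes of transcripts that ADAR enzymes are known to recode, 18 of 18 reached 1 FPKM, beside 58.6% of protein-coding rows. Their median level was 17.6 FPKM. The list was chosen with earlier results of these data known. Cyfip2, a regulator of actin at synapses, was highest at 137 FPKM. Gria2, the AMPA receptor subunit recoded by Adarb1, was at 101.5 FPKM and Gria3 at 44.4 FPKM. The lowest were Neil1, a DNA repair glycosylase recoded by Adar, at 3.18 FPKM and the kainate receptor subunit Grik1 at 2.89 FPKM. These are transcript levels, and the share of edited transcripts was not measured.

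The deaminase genes and related genes listed here outside the ADAR genes, where they had a value, all lay below Adarb2, the lowest ADAR gene. Of 7 such genes with a value, 4 reached 1 FPKM and the median was 1.13 FPKM, and Adat3 was not matched. Adat2, the catalytic subunit of a tRNA adenosine deaminase, was highest at 3.01 FPKM, 10.2-fold below Adar and 8.34-fold below Adarb1. It was close to Adarb2 at 3.35 FPKM, and with no replicates that order cannot be judged. The cytidine deaminase gene Apobec3 was at 2.01 FPKM and the tRNA deaminase gene Adat1 at 1.64 FPKM. Adad2 and Adad1, ADAR-related genes of the testis, were at 0.0245 and 0.0229 FPKM. Of 5 genes that assist C-to-U editing or regulate ADAR proteins, 3 reached 1 FPKM and the median was 6.83 FPKM. Among them, Aimp2 was at 18.7 FPKM and the ubiquitin ligase Wwp2, which acts on Adarb1 protein, at 6.83 FPKM. The cofactors of the cytidine deaminase Apobec1 were under 1 FPKM, with Rbm47 at 0.458 FPKM and A1cf listed at 0.

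**Figure D3:**
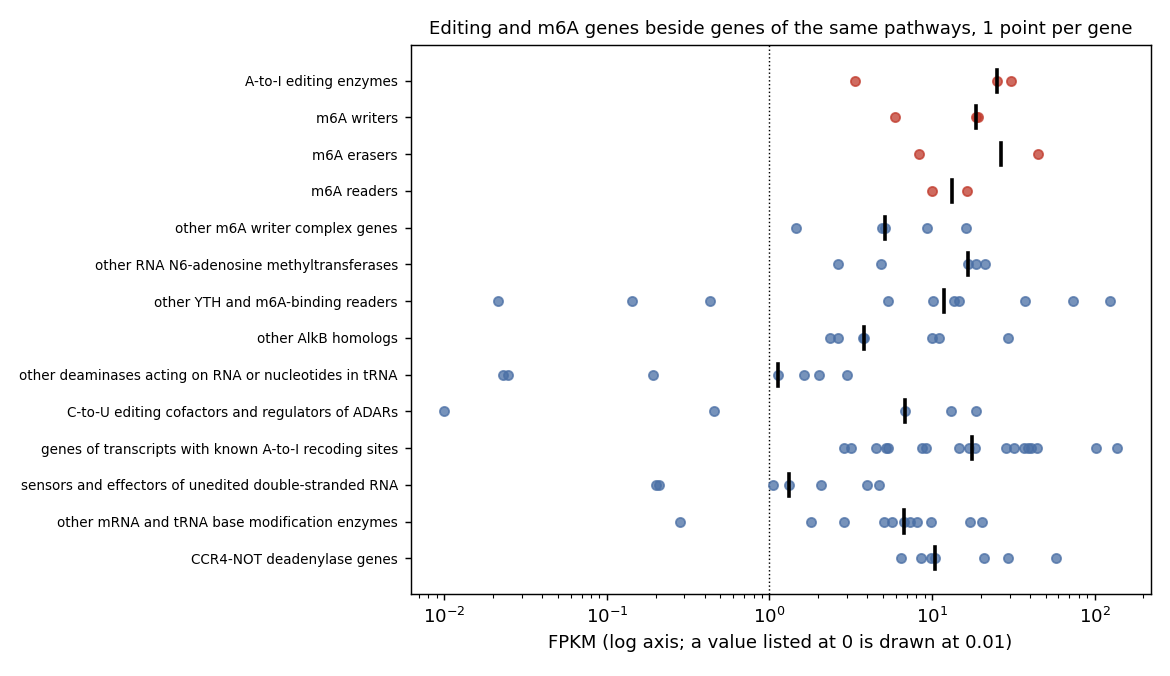
FPKM on a log axis for the 10 genes by role (red) and for 82 other genes of related function (blue), 1 point per gene and a black bar at each list's median, with a dotted line at 1 FPKM. Of the 82 genes 71 were at 1 FPKM or more, beside 58.6% of protein-coding rows, and the median of the 82 was 6.79 FPKM.

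The labelled tissue was checked against marker genes. All 6 pan-neuronal and all 6 excitatory markers reached 1 FPKM, and their medians were 223 and 199 FPKM, from Snap25 at 1279 and Nrgn at 874 FPKM down to Elavl4 at 30.6 and Emx1 at 7.08 FPKM. The 7 inhibitory markers lay between Slc32a1 at 18.6 and Sst at 297 FPKM, around a median of 39.8 FPKM. The 6 oligodendrocyte markers lay between Mog at 30.8 and Mbp at 912 FPKM (median 151 FPKM), and the 6 astrocyte markers between Aqp4 at 14.6 and Aldoc at 613 FPKM (median 84.4 FPKM). The 6 microglia markers lay between Tmem119 at 7.66 and C1qb at 39.7 FPKM (median 17.4 FPKM), and the 5 vascular markers between Kdr at 1.40 and Vtn at 27.8 FPKM (median 10.8 FPKM). Choroid plexus and ependyma markers were detected in 4 of 4 cases, from Ttr at 566 to Foxj1 at 1.84 FPKM. Of the striatal markers 3 of 5 were detected, and the lowest was Isl1 at 0.0772 FPKM. The part of each cell type in the levels of the editing and m6A genes was not tested.

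The RefSeq table of start windows matched 9 of the 10 genes, and Mettl14 was not matched. Of these 9, 8 had more CpG before their start than the median protein-coding gene, and Adarb2 had fewer. The start counted for Mettl3 lies 3617 bases inside the printed span of the gene, and the starts counted for the other 8 lie 0 to 769 bases inside theirs. At the start with the most CpG, the 250 bases before it held 41 CpG in Wtap, 40 in Adarb1, 30 in Ythdc1, 24 in Adar, 22 in Ythdf2, 18 in Fto, 14 in Alkbh5, 13 in Mettl3 and 7 in Adarb2. The median was 11 over the 16564 protein-coding rows with a window, each taken at its start with the most CpG. Over all 32851 windows the median was 6, which Adarb2 exceeded. The gene with the fewest CpG, Adarb2, was also the lowest in FPKM, while Fto, the highest, was only sixth of 9 in CpG count. Across protein-coding rows, the median level was 0.00307 FPKM for genes with 0 to 4 CpG, 1.44 FPKM for 5 to 9, 7.12 FPKM for 10 to 19 and 9.76 FPKM for 20 or more. The share of rows detected in these ranges was 13.6%, 53.7%, 81.5% and 89.8%. Adarb2 lay in the second range, Mettl3, Fto and Alkbh5 in the third, and the other 5 in the highest range. These figures describe genes of 1 sample, which are not independent replicates, and methylation of these stretches was not analysed here.

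**Figure D4:**
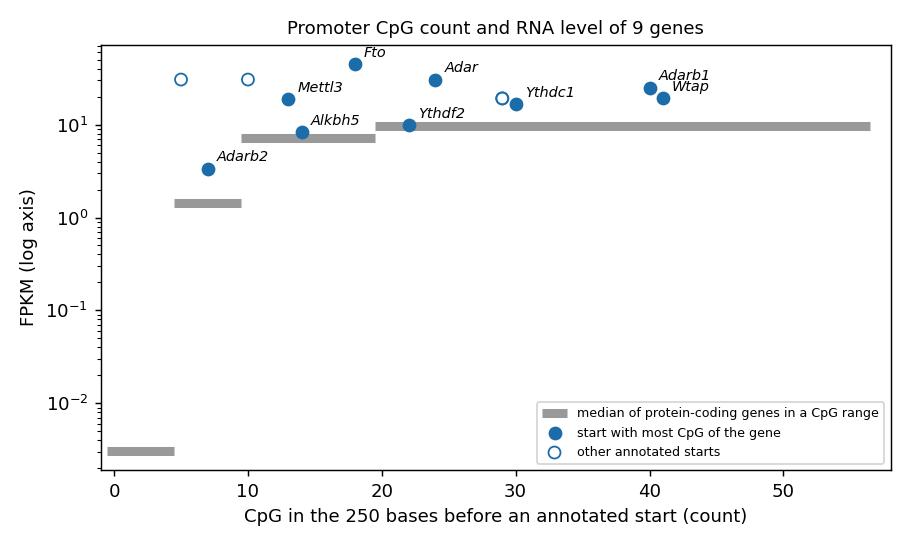
CpG count in the 250 bases before each annotated start against FPKM on a log axis, with filled points for the start with the most CpG, open points for other starts of Adar and Wtap, and grey bars for the median of protein-coding rows in each CpG range. Adarb2 is the lowest point and the furthest left of the filled ones, with 7 CpG and 3.35 FPKM.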

How the data were processed

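Per the labels' protocols, DNase-treated mPFC RNA went into TruSeq (v2) libraries. The submitters' processing notes name CASAVA 1.8.2, TopHat, Cufflinks and the build mm10. How replicates were joined, how strand was handled, and which annotation and program versions were used for TopHat and Cufflinks is not given in the sources used here. As deposited, the authors' table gives FPKM for 46073 Ensembl genes, in 2 columns with the same value in every row, which were counted as 1 sample. FPKM rests on an assumed transcript length and isoform mix, and errors in these enter every comparison between genes. The low values cannot give relative depth, since there is no other sample to compare them with.

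Symbols came from a table of Ensembl identifiers, which gave a symbol to 45139 rows. Gene classes, coordinates and start windows came from RefSeq GRCm38.p6, the same assembly as mm10. Detection was set at 1 FPKM and a pair was called apart at 2-fold on the log2(FPKM + 1) scale, which understates differences of low genes. The members, lists and pairs were chosen with earlier results of these data known, and 16 further pairs, the CpG ranges and the motif were chosen after the values were seen. Named were all 10 genes, both genes of each pair, the extremes of each related list (3 highest, 2 lowest), and the highest and lowest of each marker list, with all writer complex genes and the Igf2bp genes in full. The planned comparison of protein sequences was not run, and leaving out replicates was not possible. Some genes that this rule takes are left out of the text, while counts and medians include them. The methylation samples were not analysed here. The scripts were checked on values with known answers, with pandas 2.3.3 and numpy 2.4.6 in Python 3.11.15.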

Additional observations from a re-analysis of the deposited data

How the results depend on the processing

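All 10 genes, being at 1 FPKM or more, necessarily passed a floor of 0.1 FPKM, which 71.9% of protein-coding rows reached. After the values were rescaled to sum to 1000000 over all rows or over rows without mitochondrial genes, all 10 were at 1 or more. At a floor of 5 FPKM 9 remained, without Adarb2, and at 10 FPKM 6 remained, without Ythdf2, Alkbh5, Mettl14 and Adarb2, where 41.1% and 29.1% of protein-coding rows reached those floors. The geometric mean of the 10 genes was 14.5 FPKM, beside the median of 17.6 FPKM. Of 16 pairs 10 were apart with a pseudocount of 1 and 11 with a pseudocount of 0.1, with none, or after rescaling without mitochondrial rows. The pair gained each time was Alkbh5 over Alkbh1. These settings keep the order of the values, so no pair could change direction. No paired analysis was possible because the table holds 1 value per gene, and no replicate could be left out. With no error on any value, differences as small as those between Wtap and Mettl3 or between Ythdf2 and Ythdf3 cannot be resolved.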

Other observations

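Sensors of double-stranded RNA, which respond when editing by Adar is lacking, were low in this cortex. Of 7 genes of that list 5 were at 1 FPKM or more, beside 58.6% of protein-coding rows. Their median was 1.33 FPKM, beside 2.59 FPKM over protein-coding rows. The RNA helicase Ddx58 was at 3.98 FPKM and the adaptor Mavs at 2.09 FPKM. Zbp1, a sensor with a domain for left-handed nucleic acid that Adar shares, was at 0.208 FPKM and Oas1a at 0.200 FPKM. Ifih1, the helicase that senses unedited RNA, was at 1.06 FPKM, near the floor of 1 FPKM, and Adar was 28.9-fold above it. That pair was chosen after the values were seen, and sensing of RNA was not measured.

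Enzymes of other RNA base modifications reached 1 FPKM in 10 of 11 genes, beside 58.6% of protein-coding rows, around a median of 6.76 FPKM. The cytosine methyltransferase Nsun2 was highest at 20.5 FPKM, close to Mettl3 at 18.7 FPKM, followed by the pseudouridine synthase Dkc1 at 17.0 FPKM and the adenosine methyltransferase subunit Trmt6 at 9.85 FPKM. The tRNA cytosine methyltransferase Trdmt1 was at 1.81 FPKM and the pseudouridine synthase Pus3 was lowest at 0.283 FPKM.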
